A study of Mus musculus with 8 samples.

Results

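Histone genes were read out in poly(A)-enriched RNA of bone marrow–derived mast cells (BMMCs), mast cells grown from mouse marrow. They comprised the linker histone genes (symbols H1f) and the clustered core histone genes (H2ac, H2bc, H3c and H4c), chosen by symbol and by having at least 1 count in at least 4 of the 8 samples. Of 24059 gene symbols listed, 64 had such a name and 51 met the count rule, which were 8 H1, 13 H2A, 12 H2B, 9 H3 and 9 H4 genes. The genes that just met it, with counts in 4 samples, were *H2ac13*, *H2ac19*, *H2bc7*, *H2bc14*, *H3c13*, *H3c15* and *H4c1*. Those that just missed it, with counts in 3 samples, were *H2ac14*, *H2bc13*, *H3c2*, *H3c10*, *H4c2* and *H4c6*.

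All samples were C57BL/6 marrow cells kept in IL-3 for at least 4 wk and then given Cas9 ribonucleoproteins (RNPs). The control group, 4 samples with the labelled genotype Zc3h12a WT, received a scrambled, non-targeting guide, and the other group, 4 samples labelled Zc3h12a KO, received guides to *Zc3h12a*, the gene of the mRNA-degrading enzyme Regnase-1. RNA was extracted from resting cells 1 wk after transfection, no selection of edited cells is given in the sources used here, and age and sex of the mice were not among the labels used here. Cells came from 4 mice and samples were numbered 1 to 4 in each group, and samples with the same number were compared as pairs. The files hold 19610240 to 33986762 counts per scrambled RNP sample and 23712029 to 28564062 per *Zc3h12a* RNP sample, of which the 51 histone genes had 0.0363% to 0.0658%.

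The targeted gene did not tell the groups apart. *Zc3h12a* was at 24.9, 38.0, 37.1 and 39.3 CPM (counts scaled to the TMM-normalised library size) in scrambled RNP samples 1 to 4 and at 26.8, 41.1, 32.2 and 32.6 in *Zc3h12a* RNP samples. Its mRNA level therefore gave no check of the labels. The 9 mast cell markers, such as *Kit* and *Fcer1a*, summed to 49120 to 60790 CPM over the 8 samples. Macrophage markers summed to 2.2 to 4.76 CPM, B cell markers to 0.602 to 2.71 CPM and neutrophil markers to 0.0634 to 0.333 CPM. Of the erythroid and megakaryocyte markers, *Itga2b*, an integrin gene, had 1261 to 2026 CPM, and *Klf1*, the erythroid factor gene, had at most 0.952. In bulk RNA, fewer cells of a type and less RNA per cell cannot be told apart.

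Core histones wrap DNA into nucleosomes and linker histones bind where DNA enters and leaves them. Most mRNAs of the clustered genes are made in S phase and end, without a poly(A) tail, just after a short stem-loop that the stem-loop binding protein (gene *Slbp*) holds. *H1f0* and *H1f10*, in contrast, are known to give polyadenylated mRNA outside S phase too, and H1.0 is known to accumulate in cells that have stopped dividing. A library enriched for poly(A) therefore samples these 2 kinds of mRNA unequally.

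The stem-loop was looked for in the 200 bases after the annotated stop codons in GRCm39, as the named histone stem-loop pattern of 16 bases with a stem of 6 pairs and a loop of 4 bases, on the transcribed strand. Of the 51 genes, 47 held it, starting 22 to 59 bases after the stop codon. Allowing 1 mismatch added no gene. In the canonical transcript alone it stood in 46 of 51 (90.2%), against 69 of 21656 protein-coding genes (0.3186%), a number that includes histone genes. The core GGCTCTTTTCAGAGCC stood in 31 of the 47, and 8 different cores were found in all. The following are shown because they come from the stem-loop gene with the highest level per kb of exon in each family. *H3c6* was added for a changed loop base, and *H4c9* carries another stem. Capitals mark the stem-loop.
H1f2 (chr13:23923490-23923515, + strand): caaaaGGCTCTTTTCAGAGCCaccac
H2ac23 (chr13:21995063-21995088, + strand): aaaaaGGCTCTTTTCAGAGCCatcca
H2bc8 (chr13:23756012-23756037, + strand): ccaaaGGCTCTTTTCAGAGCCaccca
H3c11 (chr13:21967085-21967110, - strand): caaaaGGCTCTTTTCAGAGCCccctc
H3c6 (chr13:23746072-23746097, - strand): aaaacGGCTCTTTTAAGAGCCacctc
H4c9 (chr13:22225131-22225156, - strand): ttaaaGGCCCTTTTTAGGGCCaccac

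No stem-loop was found in that window of *H1f0*, *H1f10* and *H2bc21*, which says only that the letters are not there. The pseudogene *H1f11-ps* has no annotated stop codon, so no window of it was searched. The annotated ends of *H1f0*, *H1f10* and *H2bc21* held the poly(A) signal AATAAA, and so did that of *H1f2*, whose annotation runs 840 bases past its stem-loop. AATAAA or ATTAAA stood in the last 50 bases of the canonical transcript of 12 of the 51 genes (23.5%), against 70.77% of protein-coding genes. These signals are shown because they mark the annotated ends of the 4 genes, with the signal in capitals.
H1f0 (chr15:78914673-78914698, + strand): aaaactttaaAATAAAactggaaagg
H1f10 (chr6:87957408-87957433, - strand): cctggggcgcAATAAAcggttccaac
H2bc21 (chr3:96131023-96131048, + strand): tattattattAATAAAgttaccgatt
H1f2 (chr13:23924315-23924340, + strand): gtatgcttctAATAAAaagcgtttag

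Most of the histone signal came from 3 linker genes. Of 108186 counts on the 51 genes over all samples, *H1f0* had 63.5%, *H1f2* 26.5% and *H1f10* 4.34%. Per kb of exon, their mean levels were 155, 84.3 and 18.0 CPM. All H1 genes together had 95.1%, the H2B genes 3.49%, H4 0.702%, H2A 0.517% and H3 0.213%. By the annotated end, the 4 genes with no stem-loop found, *H1f11-ps* (not searched) among them, had 69.1% of the counts, the 21 stem-loop genes whose annotation runs over 100 bases past it had 30.2%, and the 26 annotated to within 100 bases of it had 0.729%. In the last class, a gene had a median of 21 counts over all 8 samples, with 139 at most (*H2ac23*), whereas the median of the second class was 81 and its highest gene was *H1f2* with 28671. These counts are not divided by length. Per kb of exon, the medians of the last and the second class were alike, at 0.203 and 0.204 CPM. Per kb of coding sequence they were 0.249 and 1.07. Across the 47 stem-loop genes, total counts had a Spearman correlation of 0.453 with the annotated bases past the stem-loop, of 0.504 with exon length and of 0.391 with the share of unique sequence, a description across genes that share libraries and chromosomes.

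**Figure D1:**
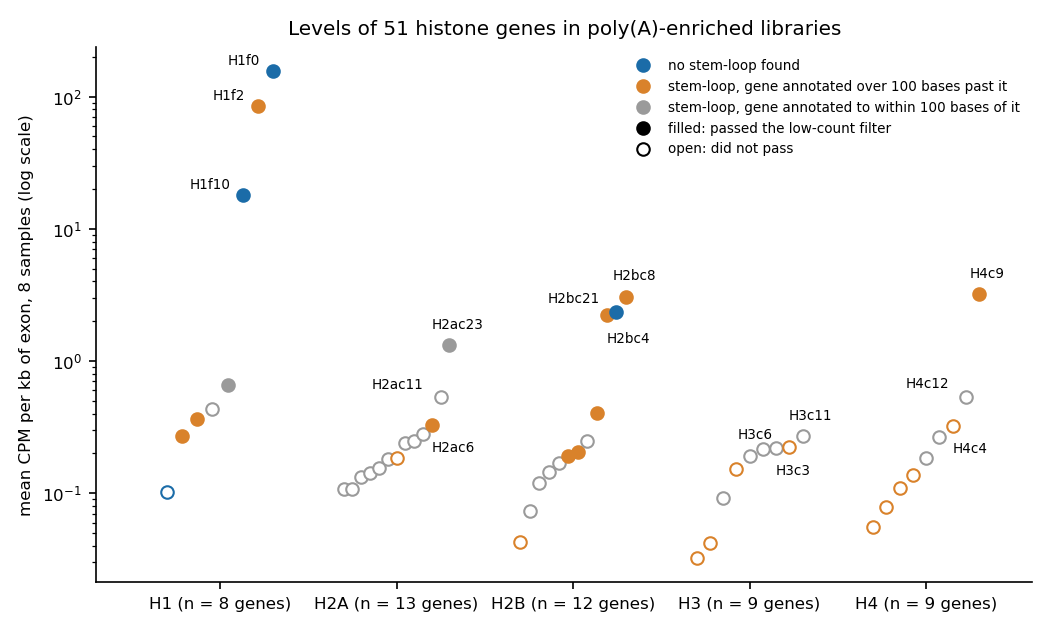
Mean CPM per kb of exon over the 8 samples (log scale) of the 51 histone genes by family, 1 point per gene, coloured by what is annotated at the 3′ end and filled where the gene passed the low-count filter; the 3 highest genes of each family are named. *H1f0*, *H1f2* and *H1f10* stand at 155, 84.3 and 18.0, while no core gene is above 3.19.

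The genes are also hard to tell apart by sequence. Of the 51, 40 lie on chromosome 13, 8 on chromosome 3 and 3 elsewhere, 48 have a single exon, and the exons of 27 overlap those of another gene. In 20 genes fewer than 50% of the 50-base windows of the exons, the length of a read, were unique in the genome, and in *H2ac19*, *H2ac23*, *H2ac24* and *H2bc24* none was. *H1f0* and *H1f10* were unique throughout, *H1f2* over 91.5%, *H2bc21* over 99.2%, *H2bc4* over 83.2%, *H4c9* over 71.1% and *H2bc8* over 50.3% of windows. Windows were searched singly, although reads came in pairs, so the share of read pairs that can be placed was not computed. How reads with several matches were counted is not given in the sources used here, so values of the less unique genes are uncertain.

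Among the linker genes, *H1f0* (chr15:78912650-78914704) had the highest level per kb of exon. It was at 298, 311, 348 and 365 CPM in scrambled RNP samples 1 to 4 and at 315, 238, 296 and 380 in *Zc3h12a* RNP samples. Both groups had their highest value in replicate 4, and they overlapped. The log2 fold change, *Zc3h12a* RNP over scrambled RNP, was -0.12 (standard error, SE, 0.10, 95% interval -0.36 to 0.12; quasi-likelihood test of edgeR, blocked by replicate number, with Benjamini-Hochberg adjusted p = 0.9604).

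*H1f2* (chr13:23922791-23924350), which encodes the replication-dependent linker histone H1.2, separated the replicate numbers rather than the RNPs. It was at 189, 99.0, 85.7 and 178 CPM after scrambled RNP and at 143, 90.3, 95.1 and 172 after *Zc3h12a* RNP. Replicates 1 and 4 were the high ones and 2 and 3 the low ones in both groups. The log2 fold change was -0.11 (SE 0.10, 95% interval -0.35 to 0.13; edgeR, adjusted p = 0.9604). Per kb of exon, *H1f0* was above *H1f2* in all 8 samples, by 1.2 to 3.08 times.

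*H1f10* (chr6:87957403-87958619), the gene of H1.10, was at 14.4, 25.6, 31.3 and 19.5 CPM in scrambled RNP samples and at 17.1, 25.3, 17.2 and 25.1 in *Zc3h12a* RNP samples. The groups overlapped, and the pairs went both ways, with the largest difference in pair 3. The log2 fold change was -0.07 (SE 0.19, 95% interval -0.51 to 0.38; edgeR, adjusted p = 0.9669). *H1f5*, which encodes the replication-dependent H1.5, had 20, 15, 6 and 18 counts in scrambled RNP samples 1 to 4 and 4 to 27 in *Zc3h12a* RNP samples. It was lower in 3 pairs, and its log2 fold change of -0.49 (SE 0.60) had a 95% interval from -1.90 to 0.92. *H1f1*, *H1f3* and *H1f4*, the other replication-dependent linker genes, had 5 to 98 counts per sample, and *H1f11-ps*, all of whose exon bases overlap another gene, had at most 5.

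**Figure D2:**
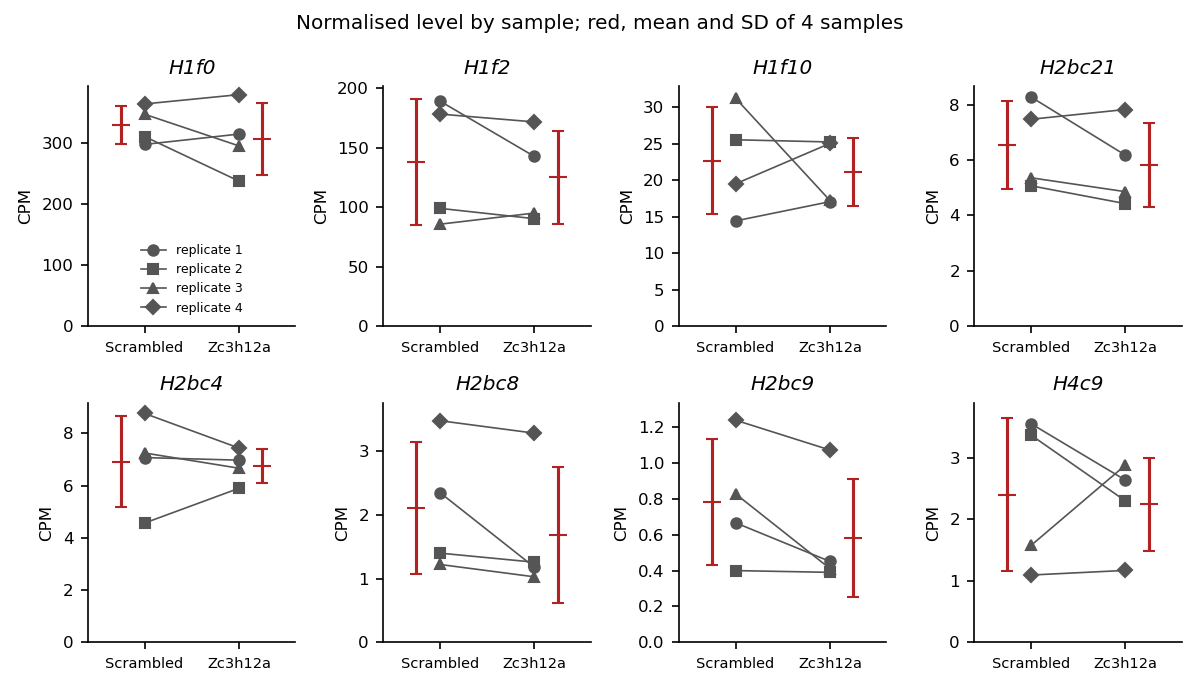
CPM by sample of 8 histone genes (vertical axes from 0), with samples of a replicate number joined by a line and red marks for the mean and SD of 4 samples. Replicates 1 and 4 are high for *H1f2* in both groups, replicate 4 is highest for *H2bc8* and *H2bc9*, and for *H4c9* it is lowest.

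Of the H2B genes, 6 of 12 passed the low-count filter, more than of any other core family. *H2bc21* (chr3:96128435-96131054), the H2B gene without a stem-loop match, was at 8.27, 5.07, 5.36 and 7.47 CPM after scrambled RNP and at 6.17, 4.42, 4.85 and 7.82 after *Zc3h12a* RNP. As for *H1f2*, replicates 1 and 4 were above 2 and 3 in both groups. Its log2 fold change was -0.17 (SE 0.18, 95% interval -0.60 to 0.25; edgeR, adjusted p = 0.9604).

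*H2bc4* (chr13:23867631-23878163), which has a stem-loop and transcripts annotated past it, was at 7.07, 4.57, 7.25 and 8.76 CPM in scrambled RNP samples and at 6.97, 5.89, 6.66 and 7.43 in *Zc3h12a* RNP samples. Replicate 2 was lowest and replicate 4 highest in both groups. Its log2 fold change was -0.005 (SE 0.18, 95% interval -0.43 to 0.42; edgeR, adjusted p = 0.9963).

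*H2bc8* and *H2bc9* were the only tested histone genes whose 4 pairs all went one way, downwards. *H2bc8* (chr13:23755570-23756187) was at 2.35, 1.40, 1.22 and 3.47 CPM after scrambled RNP and at 1.18, 1.26, 1.03 and 3.28 after *Zc3h12a* RNP. *H2bc9* was at 0.666, 0.400, 0.827 and 1.24 CPM after scrambled RNP and at 0.451, 0.390, 0.411 and 1.07 after *Zc3h12a* RNP. The groups overlapped for both genes, and replicate 4 was highest in either group. The log2 fold changes were -0.37 for *H2bc8* (SE 0.39) and -0.45 for *H2bc9* (SE 0.53), each with an adjusted p of 0.9604 (edgeR). Genes that were lower in all 4 pairs made up 8.54% of the 14934 genes tested and those higher in all 4 made up 4.98%, against 2 and 0 of the 15 histone genes. *H2bc24*, with no unique window and chosen here after its values were seen, had 0 counts in scrambled RNP sample 2, which allows up to 3 counts or 0.1 CPM, and 9 to 17 counts in the other 7 samples.

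Among the H4 genes, only *H4c9* (chr13:22224806-22225532) passed the filter. It was at 3.55, 3.37, 1.58 and 1.09 CPM after scrambled RNP and at 2.64, 2.30, 2.88 and 1.17 after *Zc3h12a* RNP. In contrast to *H2bc8* and *H2bc9*, replicate 4 was lowest in both groups. Its log2 fold change was -0.01 (SE 0.40, 95% interval -0.95 to 0.93; edgeR, adjusted p = 0.9961). Per kb of exon, *H4c9* had 3.19 CPM, close to *H2bc8* at 3.07, *H2bc21* at 2.36 and *H2bc4* at 2.21. Per kb of coding sequence they were not close, at 7.44 for *H4c9*, 4.98 for *H2bc8*, 16.2 for *H2bc21* and 17.9 for *H2bc4*. *H4c4*, with 2 to 24 counts per sample, and *H4c12*, with 0 to 8, were next in the family per kb of exon and were not tested.

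In the H2A family, *H2ac23* and *H2ac6* were tested. *H2ac23* had 33, 20, 7 and 11 counts in scrambled RNP samples and 24, 15, 11 and 18 in *Zc3h12a* RNP samples, although no 50-base window of its exons is unique. The log2 fold change was 0.10 (SE 0.54) for *H2ac23* and 0.27 (SE 0.54) for *H2ac6*. *H2ac11*, the second of the family per kb of exon, had 8, 12, 12 and 0 counts after scrambled RNP. It had 1, 0, 16 and 8 after *Zc3h12a* RNP, so that 0 stood in each group.

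No H3 gene passed the filter. The 9 genes summed to 0.945 to 1.30 CPM after scrambled RNP and 0.763 to 1.30 after *Zc3h12a* RNP. *H3c11* had 1 to 4 counts per sample, *H3c3* 1 to 8 and *H3c6* 1 to 11. Their replication-independent counterparts *H3f3a* and *H3f3b*, which encode H3.3 and give polyadenylated mRNA, had 390 CPM per kb of exon together against 1.44 for the 9 H3 genes, 271 times more. For H2A, *H2az1* and *H2az2*, the genes of H2A.Z, had 167 CPM per kb against 3.96 for the 13 H2A genes, 42.3 times more. Both ratios rest on few counts, 230 for the 9 H3 genes and 559 for the 13 H2A genes over all samples. The share of unique windows ran from 12.4% (*H3c11*) to 83.0% (*H3c4*) and from 0% (*H2ac23*) to 88.4% (*H2ac6*). How reads with several matches were counted is not given, so the size of both ratios is uncertain. The 36 histone genes that were not tested had at most 24 counts in a sample and 0.824% of the histone counts, and 30 of the 51 genes had fewer than 10 counts in every sample.

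Across the 15 tested genes (6 H1, 2 H2A, 6 H2B and 1 H4), none passed the test between the RNPs. At a log2 fold change beyond 0.5 and an adjusted p at or under 0.05, 0 histone genes were higher and 0 lower, where 0.0% of the 14934 genes tested were called in either direction. By an unadjusted p at or under 0.05, 0 of 15 passed, against 2.12% of all genes higher and 4.05% lower. With DESeq2's Wald test and with limma-trend the counts for histone genes were also 0. The adjusted p-values ran from 0.9604 to 0.9963, and the median log2 fold change was -0.01, against 0.04 over all genes. Above 0 stood 6 of the 15 and below it 9, where 57.8% and 42.2% of all genes did, and in 0 of the 15 were the groups free of overlap (0.924% of all genes). Because p-values rest on the spread between these samples, and whether a number marks 1 mouse is not in the labels, they cover no more than that spread.

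The intervals differed in width between genes. The 95% interval lay within 0.5 on the log2 scale on both sides for *H1f0*, *H1f2* and *H2bc4*, and reached past it on both sides for 10 of the 15 genes. Changes of the size the threshold asks for thus lay within the intervals of those 10 genes and outside those of the 3. The width did not follow the counts alone: *H1f10*, with 4692 counts over all samples, had an SE of 0.19, and *H2bc4*, with 1456, had one of 0.18.

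**Figure D3:**
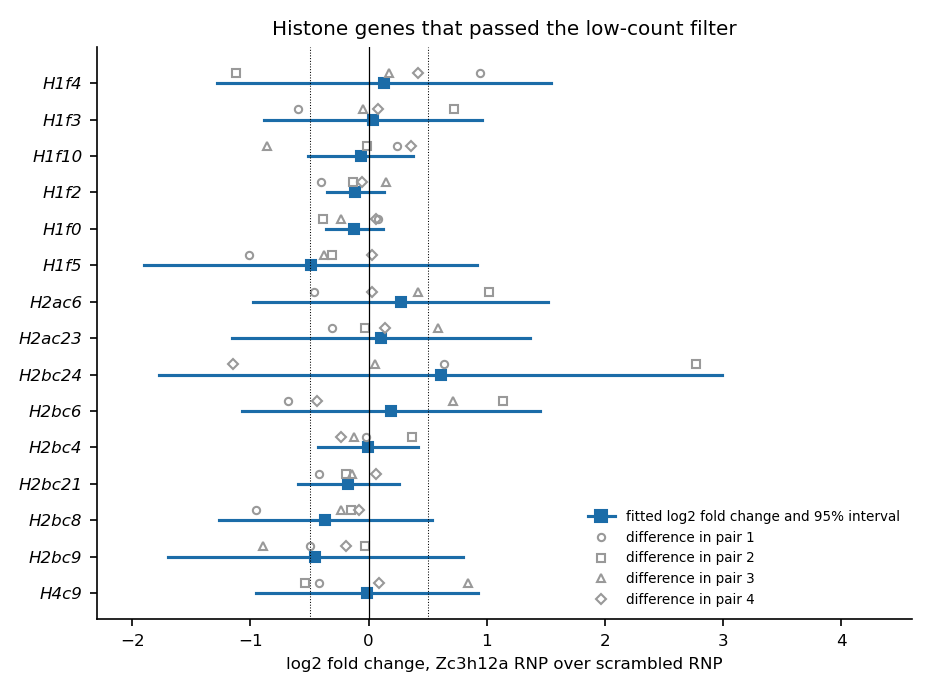
Fitted log2 fold change, *Zc3h12a* RNP over scrambled RNP, of the 15 tested histone genes (blue squares) with 95% intervals (lines), and the difference in each pair (grey symbols); dotted lines mark 0.5 in each direction. All 15 intervals cover 0, and those of *H1f0*, *H1f2* and *H2bc4* stay between the dotted lines.

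The histone genes varied between the replicate numbers. For 15 of 15 tested genes, the fold range over the means of the 4 replicate numbers exceeded the fold between the RNPs, although a range over 4 means tends to be wider than a difference of 2. By these means, 11 of the 15 were highest in replicate 4 and 7 were lowest in replicate 2, and both replicate 4 samples were the highest of the 8 samples for 6 genes. These counts were not made over all genes, so whether they are particular to histone genes was not tested. Within pairs, 4, 5, 7 and 9 of the 15 genes were higher after *Zc3h12a* RNP in pairs 1 to 4, with median log2 differences of -0.42, -0.03, -0.05 and 0.03. Summed over the 47 stem-loop genes, the level was 214, 119, 105 and 205 CPM in scrambled RNP samples and 163, 109, 115 and 197 in *Zc3h12a* RNP samples, most of which was *H1f2*. The 4 genes with no stem-loop found summed to 321, 342, 385 and 392 CPM and to 338, 268, 318 and 413, most of which was *H1f0*. The library labelled scrambled RNP 4 was also the shallowest, and scrambled RNP 2 the deepest.

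Genes of DNA replication were set beside the histone genes. A list of 30 S phase genes, such as *Cdc6*, which loads the replicative helicase, had fitted log2 fold changes above 0 in all 30, where 57.8% of all genes did. The median was 0.36, and 0 were called. Without replicate 2, 7 of the 30 had an adjusted p at or under 0.05 (edgeR). In that fit, with the log2 threshold of 0.5 as well, 80 of 15082 genes were called higher and 57 lower. By pair, the median differences of the S phase genes were 0.35, -0.06, 0.21 and 0.92. In pair 4, where that list differed most, the tested histone genes had a median of 0.03. An unadjusted p at or under 0.05 was reached by 15 of the 30 upwards (2.12% of all genes). Without replicates 1, 2, 3 and 4 in turn this count was 1, 27, 3 and 2, where 0.714%, 4.58%, 0.498% and 2.88% of all genes passed upwards. It was 4 with RLE and 22 with upper-quartile size factors (0.857% and 3.29% of all genes), 10 with DESeq2 (0.857%) and 0 without the block (0.1%). The median stayed between 0.18 and 0.55 when a replicate number was left out. *Cdc6* was at 14.2 ± 3.28 and 18.5 ± 2.58 CPM (mean ± SD, n = 4 each) after scrambled and *Zc3h12a* RNP, a log2 fold change of 0.39 (SE 0.12; edgeR, adjusted p = 0.645). *Hells*, a chromatin remodeller gene, was at 26.6 ± 8.21 and 32.1 ± 5.14 CPM, a log2 fold change of 0.30 (SE 0.10; adjusted p = 0.6624). Whether the histone and the S phase genes differ in their response was not tested.

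**Figure D4:**
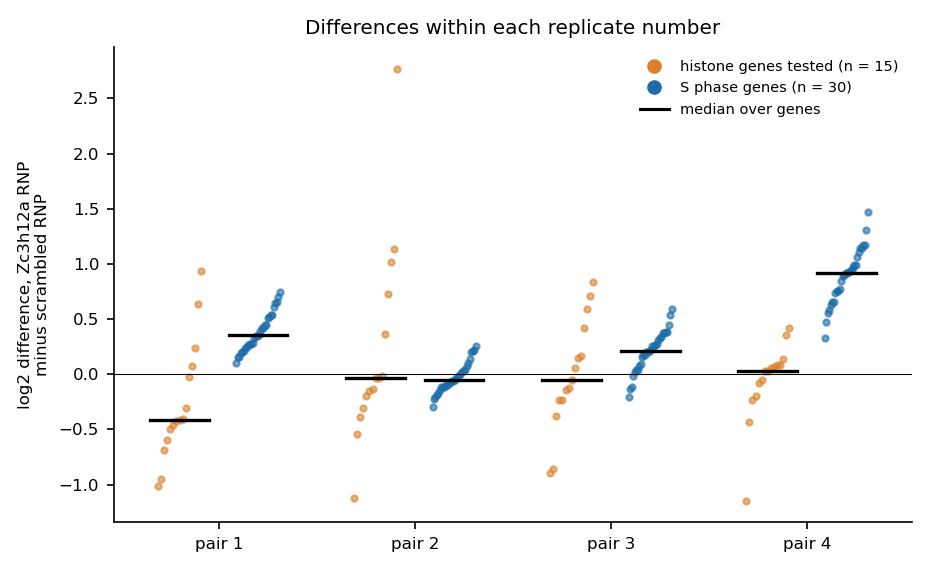
Log2 difference, *Zc3h12a* RNP minus scrambled RNP, of each tested histone gene (orange, n = 15) and each S phase gene (blue, n = 30) in the 4 pairs, with medians as black bars. In pair 4 the S phase median is 0.92 and the histone median 0.03.

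By sample, the S phase genes summed to 1520, 1986, 2224 and 1037 CPM after scrambled RNP and to 1931, 1884, 2593 and 1833 after *Zc3h12a* RNP. The lowest of these, scrambled RNP 4, was the sample with the highest *H2bc8*, *H2bc9* and *H2bc4* and the lowest *H4c9*. Not all histone genes went this way: *H1f2*, *H2bc21*, *H2ac23* and *H2ac6* were highest in scrambled RNP 1. In *Zc3h12a* RNP samples, the lowest sum was again in replicate 4, though close to that of replicate 2 (1833 against 1884). That replicate 4 sample had the highest *H1f0*, *H1f2* and *H2bc21* of its group. Whether histone levels go with the S phase sums was not tested.

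**Figure D5:**
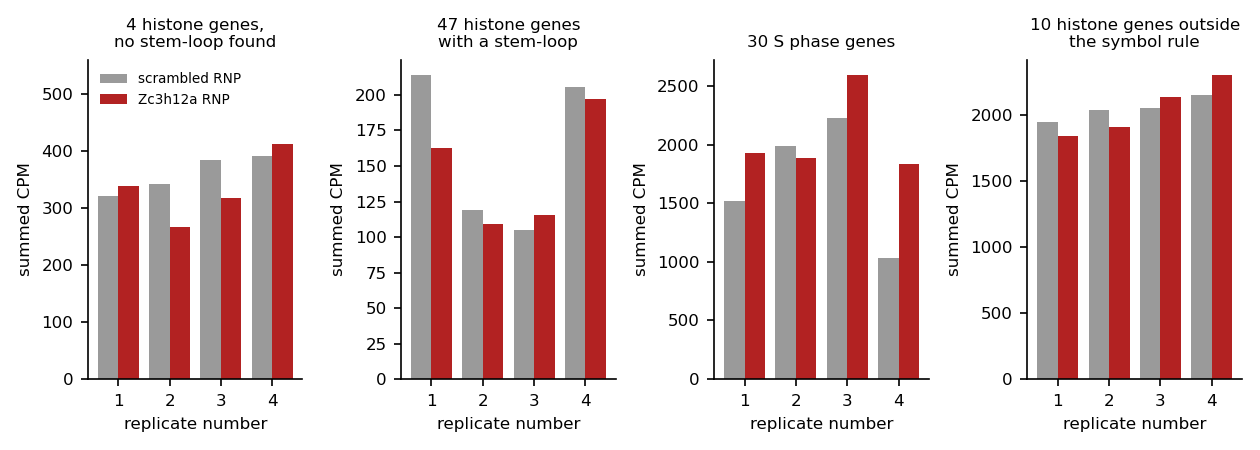
Summed CPM (vertical axes from 0) by replicate number for scrambled RNP (grey) and *Zc3h12a* RNP (red) samples, in 4 panels for the histone genes with no stem-loop found, those with a stem-loop, the S phase genes and 10 histone genes outside the symbol rule. Replicates 1 and 4 are high for the stem-loop genes, at 163 to 214 CPM against 105 to 119, and scrambled RNP 4 is the lowest S phase bar at 1037 CPM.

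Genes that process histone mRNA or carry histones were read out in the same fit. Of 17 genes for histone mRNA 3′ ends and transcription, 14 had a log2 fold change above 0, where 57.8% of all genes did. The median was 0.06 (0.002 to 0.19 when a replicate number was left out), and 0 were called or passed an unadjusted p of 0.05. *Slbp* was at 44.5, 51.5, 58.7 and 52.8 CPM after scrambled RNP and at 49.2, 50.1, 59.8 and 61.6 after *Zc3h12a* RNP, so the groups overlapped (log2 fold change 0.09, SE 0.08). *Coil*, the Cajal body scaffold gene, was higher in all 4 pairs (log2 fold change 0.27, SE 0.15), and *Sympk*, a scaffold of the cleavage complex, in 3 (0.15, SE 0.09). *Eri1*, an exonuclease that trims histone mRNA ends, was lower in all 4 pairs (-0.11, SE 0.07), and *Zfp473*, with 17 to 61 counts per sample, was higher in all 4 (0.49, SE 0.44), both chosen after their values were seen.

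Of 15 histone chaperone genes, 0 were called, 9 were above 0 (57.8% of all genes were) and the median log2 fold change was 0.05. That median was 0.18 without replicate 2, -0.02 without replicate 3 and -0.04 without replicate 4. *Nap1l1*, a chaperone of H2A and H2B, was lower in all 4 pairs, at 765 ± 143 and 673 ± 114 CPM (mean ± SD, n = 4 each), with a log2 fold change of -0.18 (SE 0.08; edgeR, adjusted p = 0.7956). It was the 1 gene of the 15 with an unadjusted p at or under 0.05, which 6.17% of all genes tested reached in either direction. *Cabin1*, of the HIRA complex that deposits H3.3, was higher in all 4 pairs (log2 fold change 0.15, SE 0.08).

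A list of 10 histone genes outside the symbol rule, mostly variants made throughout the cell cycle, summed to 1949 to 2155 CPM after scrambled RNP and 1843 to 2303 after *Zc3h12a* RNP. None was called or passed an unadjusted p of 0.05, and the median log2 fold change was 0.08 (-0.02 without replicate 3). *H3f3b* was at 988, 906, 1155 and 1475 CPM and at 895, 914, 1083 and 1481, again highest in replicate 4 of both groups (log2 fold change -0.05, SE 0.07). *H3f3a* had a log2 fold change of 0.05 (SE 0.15) and *H2az1* one of 0.17 (SE 0.13). *H2ax*, the variant phosphorylated at DNA breaks, and *Cenpa*, the centromeric H3 variant, each had one of 0.28 (SEs 0.17 and 0.15). The list is not free of stem-loop genes: *H2ax* held the histone stem-loop after its stop codon, and *H4f16*, an H4 gene, was not found by that symbol in the annotation.

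As a background for RNA without a tail, 4 such RNAs of a list of 12 were in the files (*Rny1*, *Rny3*, *Rnu12* and *Rpph1*) and summed to 0.476 to 1.80 CPM. These RNAs are short, with 102 (*Rny3*) to 319 (*Rpph1*) bases annotated. Whether longer RNAs without a tail are captured to the same degree was not tested. Smell receptor genes, known from the olfactory epithelium, summed over 803 genes to 131 to 533 CPM after scrambled RNP and 245 to 395 after *Zc3h12a* RNP. The 131 was in scrambled RNP 2 and the 533 in scrambled RNP 4. Summed over 43 genes, the core histone genes stood at 22.2 to 29.4 CPM after scrambled RNP and 20.7 to 27.7 after *Zc3h12a* RNP. Sums over such unlike numbers of genes do not compare levels per gene.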

How the data were processed

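Total RNA of 8 BMMC samples was poly(A)-enriched, made into libraries with an mRNA kit and sequenced in read pairs. Per the labels, the authors aligned with HISAT2 2.2.1 to GRCm39, after FastQC 0.11.9, and counted with featureCounts 2.0.1. They deposited raw counts per gene symbol without normalization; the methods name a batch correction, but the deposited values are whole numbers. Strand and multiple-match settings are not given in the sources used here.

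Counts were tested with edgeR 4.0.16 (R 4.3.3): TMM, filterByExpr by group, and a quasi-likelihood fit of replicate number and RNP on the whole table, with Benjamini-Hochberg adjustment over 14934 genes. A gene was called beyond a log2 fold change of 0.5 at an adjusted p at or under 0.05. Standard errors are the log2 fold change over the square root of F, and 95% intervals use the fit's degrees of freedom. Pair differences are of log2 CPM with a prior count of 2. Alternatives were DESeq2 1.42.0, limma-trend (limma 3.58.1), no block, other size factors and filters, and leaving out each replicate number.

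The study transfected cells of 4 mice, which is where the pairing comes from. Deviations from group means of same-numbered samples correlated at 0.595, 0.0752, 0.624 and 0.0414 when all tested genes entered. Samples with other numbers reached up to 0.398 there, above the values of pairs 2 and 4. Over the 9777 genes with a mean log2 CPM above 2, same-numbered samples correlated at 0.76, 0.651, 0.73 and 0.663, and other numbers reached at most 0.164. Some tested histone genes, such as *H2bc8* (mean 1.90 CPM), lay below that level. Every pair of samples in a group differed by more than sampling noise (chi-square over its degrees of freedom at least 53.6).

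Features came from GENCODE M39 on GRCm39, a later annotation than the Ensembl release counted on. All 64 symbols were found, 1 under a later symbol. Sequences are from that genome. CPM per kb divide by the union of exons.

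The genes, lists and tests were chosen with earlier results of these data known. Named genes are the 3 with the highest CPM per kb in each family, the 6 tested with the lowest p, those alike in all 4 pairs, those at the edge of the count rule, and of each list the 2 with the lowest p, with *Slbp*, *H3f3a*, *H3f3b*, *H2az1* and *H2ax*. Marker and list genes outside this rule are given as sums, and *Kit*, *Fcer1a* and *Klf1* as examples of them. Scripts were tested on simulated data. Python 3.11.15 with matplotlib 3.10.9 made the figures.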

Additional observations from a re-analysis of the deposited data

Results flagged for a closer look

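In groups of 4 samples, 5 of 56 had 1 sample whose gap to the nearest other, as a share of the group's range, passed Dixon's 95% critical value, where chance gives about 2.8 (1 in 20). Of the 5, 3 were histone genes in *Zc3h12a* RNP replicate 4. *H2bc8* was at 3.28 CPM there, with a gap of 0.898 of the range, *H2bc9* at 1.07 CPM with 0.911, and *H3c6* at 0.357 CPM with 0.94. The other 2 were *Zc3h12a*, lowest in scrambled RNP replicate 1 at 24.9 CPM with a gap of 0.846, and the summed S phase genes, highest in *Zc3h12a* RNP replicate 3 at 2593 CPM with a gap of 0.872. For *H2bc8* and *H2bc9*, the scrambled RNP sample of the same number was the highest of its group too, whereas for *H3c6* it was the lowest, at 0.0476 CPM against 0.236 to 0.333 in the other 3.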

How the results depend on the processing

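No histone gene was called, or passed an unadjusted p at or under 0.05, under any alternative run. Over all genes, DESeq2 called 8 higher and 52 lower, limma-trend 1 lower, RLE size factors 1 lower, the looser filter of 1 count in 4 samples 4 lower, and 10 counts in every sample 3 lower. Leaving out a replicate number gave 0 to 80 higher and 0 to 57 lower; the 80 and 57 came without replicate 2, and without replicate 4 there were 2 lower. Without the replicate block, 0 genes were called higher and 0 lower, and *H2ac23* turned to a log2 fold change of -0.0025; the block's removal changed no other call. Signs turned for 6 genes, whose log2 fold changes without 1 replicate number ran from -0.1796 to 0.0302 (*H1f0*, above 0 without replicate 2), -0.2513 to 0.0321 (*H1f2*, without 1), -0.2111 to 0.1406 (*H1f10*, without 3), -0.1273 to 0.3077 (*H2ac23*, below 0 without 3), -0.0639 to 0.0728 (*H2bc4*, above 0 at 0.0465 without 1 and 0.0728 without 4) and -0.3573 to 0.2245 (*H4c9*, above 0 at 0.179 without 1 and 0.2245 without 2). *H2bc4* was also at 0.006 with upper-quartile factors and, with the looser filter, *H2bc4* at 0.029 and *H4c9* at 0.0161. The median of the erythroid and megakaryocyte markers ran from -0.1091 to 0.7067, with fewer of them tested without replicate 3 (0.6315) or 4 (0.7067). The cause of the other changes was not tested. The looser filter tested 51 histone genes and the stricter 11. List medians crossed 0 for the tested histone genes (0.0321 without replicate 1, 0.0161 with the looser filter), the H2B genes among them (0.0009 without replicate 1), the macrophage (-0.1629 and -0.0992 without replicates 2 and 3) and B cell markers (-0.1014 without replicate 2), the histone chaperones (-0.0226 and -0.0428 without replicates 3 and 4) and the 10 other histone genes (-0.0219 without replicate 3). Without the replicate block, the medians of those 10 and of the macrophage markers were -0.0133 and -0.0108. Of the 15 tested genes, 3 had an interval within the threshold fold, and what share of the interval width comes from depth was not tested.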
